A study of Homo sapiens with 30 samples.

Results

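The genes described here encode the subunits of the human proteasome, 38 of the 60675 rows of the deposited gene table, and they were taken by gene name. They comprise 7 alpha and 7 beta subunits of the 20S core, 3 beta subunits of the immunoproteasome, 6 ATPases and 11 other subunits of the 19S regulatory particle, and 4 proteasome activators. All 38 passed the filter on low counts and were among the 16083 genes tested. The lowest expected count of any member in any library was 113, for PSMB9.

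The proteasome is the protease that degrades most ubiquitin-tagged proteins of the cytosol and nucleus. Its 20S core is a barrel of stacked alpha and beta rings with the catalytic sites inside, and the 19S particle caps the barrel, binds ubiquitin chains, removes them and unfolds the substrate with a ring of ATPases. In liver-derived cells, as elsewhere, the transcription factor NFE2L1 is known to raise the genes of core and 19S subunits together when proteasome activity is short.

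Messenger RNA was sequenced from HepG2, an established human hepatocellular carcinoma line, after 24 h with ethanol extracts of herbal formulas of Korean medicine classed as tonifying. Sibjeondaebo-tang and Palmul-tang were each given at 20 µg/mL (low), 100 µg/mL (medium) and 500 µg/mL (high), with 3 libraries a group, Samul-tang at the same doses with 2 libraries a group, and Sagunja-tang at the same doses with 1 library a group. The reference was 3 libraries of vehicle-treated cells, with 0.1% DMSO by the sample labels and 2% by the series text. Traditionally the Palmul-tang recipe is Samul-tang combined with Sagunja-tang, and that of Sibjeondaebo-tang is Palmul-tang with more herbs.

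Library totals ran from 21570416 to 37707232 expected counts, and proteasome members took 0.417% to 0.523% of a library. All 9 hepatocyte markers were detected in every group. PTPRC and CD3E, which mark leukocytes, were at or near 0. LYZ ran from 1030 to 1720 CPM (expected counts scaled to a common library size) and CD68 from 51.9 to 82.2 CPM in all libraries, vehicle included. The CPM of these markers were not adjusted for composition, while the CPM of the members and of the genes listed with them were. Replicate 3 of Sibjeondaebo-tang low held 21.85 CPM of summed fibroblast markers, and the other libraries under 1 CPM. Mitochondrially encoded genes took 15.7% to 19.68% of counts in Sibjeondaebo-tang, 14.8% to 18.4% in Palmul-tang and 11.2% to 16.7% in Samul-tang over all doses, against 12.4% to 14.5% in vehicle. The sample codes start with 15 for Sibjeondaebo-tang and Palmul-tang, with 14 for Samul-tang and Sagunja-tang and with E1 for vehicle. What the codes stand for is not said. Treatment and code set cannot be told apart in any comparison with vehicle, whereas the high and low dose of a formula carry the same code.

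In vehicle cells the subunit mRNAs spanned a wide range of levels per transcript length. PSMA6, an alpha-ring subunit, had the highest level at 444 ± 32.9 CPM per kilobase (SD, n = 3). PSMB5, which carries the chymotrypsin-like site, followed at 291 ± 17.8 and the interferon-inducible activator PSME2 at 287 ± 19.95 CPM per kilobase, and the ranges of these genes overlapped. The median over the 14 core members was 113 CPM per kilobase, and over the 17 members of the 19S particle 54.1 CPM per kilobase. The immunoproteasome subunits, which replace the standard catalytic ones in immune and interferon-treated cells, were the lowest, with PSMB8 at 19.1 ± 0.28, PSMB9 at 7.91 ± 0.759 and PSMB10 at 7.29 ± 0.502 CPM per kilobase. The ranges of PSMB9 and PSMB10 overlapped, and PSMB8 stood above both.

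**Figure D1:**
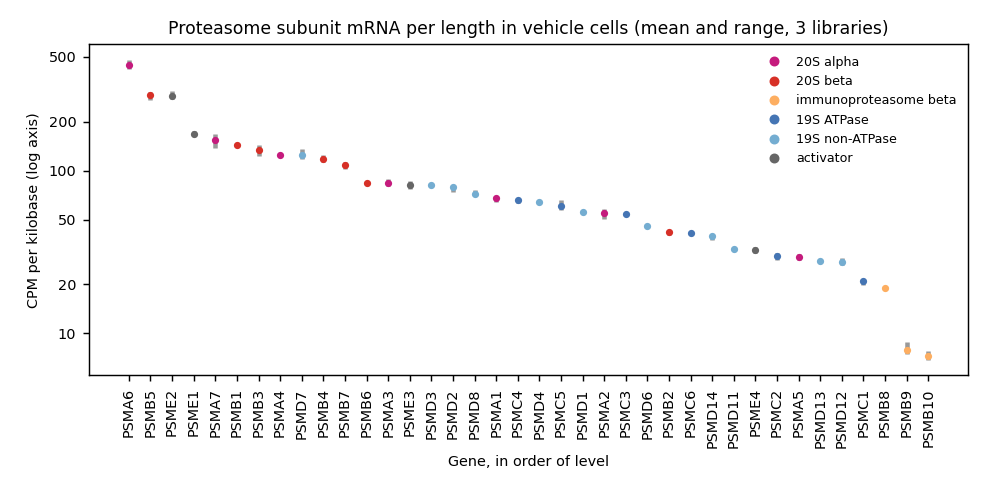
Level of each proteasome subunit mRNA in the 3 vehicle libraries, in CPM per kilobase of transcript on a log axis, in order of level (points are means, grey bars, mostly hidden by the points, the range, and colours the class of subunit). PSMA6 lies highest at 444 and PSMB10 lowest at 7.29 CPM per kilobase.

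Against vehicle, the members split. The core subunits that passed the test were mostly lower, chiefly at the low and medium dose of Sibjeondaebo-tang and Palmul-tang. The 19S subunits that passed were mostly higher at the medium and high dose. At the low dose 2 of them were higher and 3 lower in Sibjeondaebo-tang, 2 and 2 in Palmul-tang, and 1 and 0 in Samul-tang. Over the 9 tested comparisons with vehicle, 14 members were higher in at least 1 and lower in none, 17 were lower in at least 1 and higher in none, 7 passed in none, and 0 passed in both directions. As shares of the 38 these are 36.8%, 44.7% and 18.4%, against 26.9%, 29.1% and 42.5% of all genes tested, of which 1.42% passed in both directions. Of the 14 core members, 10 (71.4%) were lower at some dose and only PSMA4, PSMA6 and PSMB2 were higher. Of the 17 members of the 19S particle, 10 (58.8%) were higher at some dose, and only PSMC2, PSMC3 and PSMD2 were lower. Among those higher, PSMC6 and PSMD6 passed only at Samul-tang medium, where each call held in 6 of 13 alternative settings. The call of PSMD3 held in 8 of 14 at Palmul-tang high and 4 of 14 at Sibjeondaebo-tang high. That of PSMD14 held in 5 of 14 at Sibjeondaebo-tang high. The lower call of PSMC3 held in 8 of 14 at Palmul-tang low and 7 of 14 at Sibjeondaebo-tang low. The comparisons share the vehicle libraries and are not independent of each other.

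**Figure D2:**
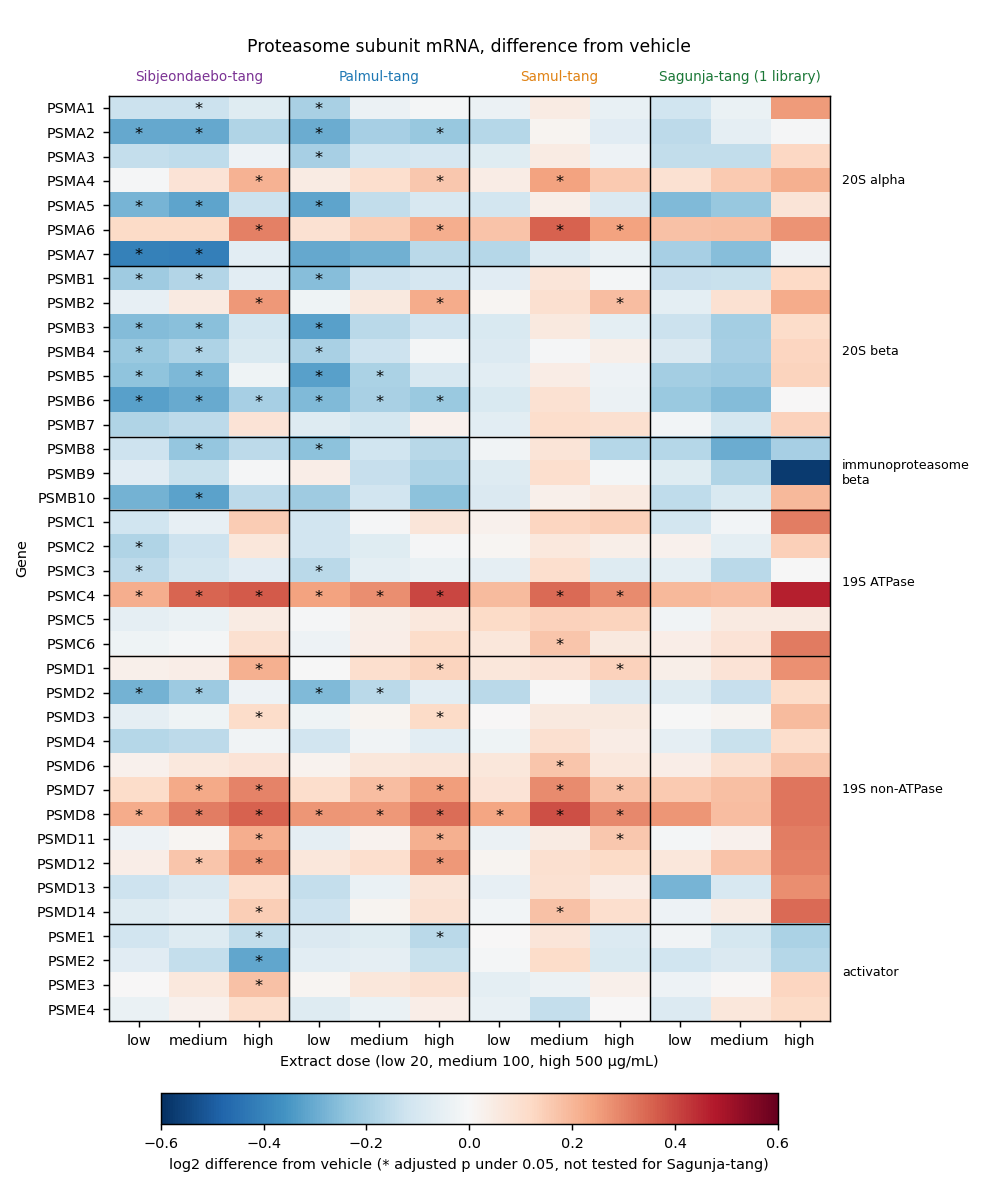
log2 difference from vehicle of the 38 members (rows, by class of subunit) at the low, medium and high dose of each formula (columns), with stars for an adjusted p under 0.05 in edgeR's quasi-likelihood test and no test for the single Sagunja-tang libraries. PSMC4 and PSMD8 are red throughout, PSMB6 is blue at every dose of Sibjeondaebo-tang and Palmul-tang, and red is most frequent in the 19S rows of the high-dose columns.

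By formula and dose, the counts were as follows. In Sibjeondaebo-tang low, 2 members were higher and 11 lower than in vehicle (34.2% of 38, against 23% of all genes tested, with 11.5% of genes in each direction). In Sibjeondaebo-tang medium, 4 were higher and 12 lower (42.1%, against 30.2% of all genes, with 15.3% higher and 14.8% lower). In Sibjeondaebo-tang high, 12 were higher and 3 lower (39.5%, against 36% of all genes), so that the total lay near the background while the split leaned to higher (31.6% of members and 19.3% of genes higher, 7.89% and 16.7% lower).

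In Palmul-tang, too, more members were lower at the low dose and more were higher at the high dose. At its low dose 2 members were higher and 12 lower (36.8%, against 23.2% of all genes, with 11.5% higher and 11.7% lower). At its medium dose 3 were higher and 3 lower (15.8%, against 22.3% of all genes, with 11.6% higher and 10.8% lower). At its high dose 10 were higher and 3 lower (34.2%, against 31.8%), again near the background in total, with 26.3% of members and 16.3% of all genes higher, and 7.89% and 15.6% lower. The median log2 difference over the 38 members was -0.10, -0.04 and 0.01 from the low to the high dose of Palmul-tang and -0.12, -0.10 and 0.06 for Sibjeondaebo-tang, while that of all genes tested was -0.01 in each of these comparisons.

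Samul-tang gave 0 members lower than vehicle at the 3 doses in the main test. An alternative gave 1 lower member at the medium dose with the replicate block, 1 at the medium dose without Samul-tang medium replicate 3, and 1 at the low dose with the compared groups alone. Its low dose had 1 member higher (2.63%, against 11.3% of all genes, with 6.47% higher and 4.79% lower). Its medium dose had 8 higher (21.1%, against 19.8% of all genes, with 10.3% higher and 9.57% lower), and its high dose 7 (18.4%, against 18.5% of all genes, with 9.82% higher and 8.69% lower). In total these shares lie near or below the background, while the calls at the medium and high dose were all in 1 direction. The medium dose rested on its replicate 2, without which 1 member stayed past the threshold, and the high dose on its own replicate 2 likewise, with 1 member left. The count at the high dose was 3 without vehicle replicate 2 and 2 without vehicle replicate 3, and the medium count was 5 when vehicle replicate 3 was dropped. The low-dose count was 2 without vehicle replicate 1 and 0 without vehicle replicate 2, vehicle replicate 3 or either Samul-tang low library.

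Single libraries also moved the counts of the other formulas. The Sibjeondaebo-tang low count of 13 was 4 without vehicle replicate 2, and the medium count of 16 was 10 without vehicle replicate 2, 10 without its own replicate 2 and 8 without its own replicate 3. The Palmul-tang high count of 13 was 8 without vehicle replicate 2 and 8 without its own replicate 3. The Palmul-tang medium count of 6 was 3 without vehicle replicate 2 or its own replicate 2, and 2 without its own replicate 3. With mitochondrially encoded genes left out of the library sizes, these totals were 13, 15 and 15 for the low, medium and high dose of Sibjeondaebo-tang.

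The core and the 19S particle can be set side by side as summed CPM. At the low, medium and high dose of Sibjeondaebo-tang the 14 core members summed to 1765 ± 11.0, 1784 ± 60.1 and 2022 ± 27.7 CPM, and the 17 members of the 19S particle to 1697 ± 28.3, 1765 ± 7.22 and 1924 ± 11.3 CPM (SD, n = 3 each). In vehicle the core summed to 1937 ± 69.4 CPM and the 19S particle to 1736 ± 46.1 CPM (n = 3). The core sum was thus below every vehicle library at the low and medium dose, and both sums were above every vehicle library at the high dose. PSMA6, the core member with the highest CPM, weighs most in the core sum. At the high dose it was at 449, 501 and 517 CPM, against 431, 381 and 379 CPM in vehicle. The median log2 difference over the 14 core members there was -0.06, with 3 called higher and 1 lower. The higher core sum at this dose is therefore not a rise of the core as a whole. In Palmul-tang the core summed to 1757 ± 35.6, 1861 ± 118 and 1961 ± 78.7 CPM from low to high, of which the low dose lay below vehicle and the others overlapped with it. In Samul-tang the core sums were 2016 and 1821 CPM at the low, 2215 and 2008 at the medium and 2079 and 1968 at the high dose, and the medium dose lay above vehicle.

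The log2 ratio of these sums, core over 19S, was 0.06 ± 0.0203, 0.01 ± 0.043 and 0.07 ± 0.0271 at the low, medium and high dose of Sibjeondaebo-tang and 0.04 ± 0.0325, 0.05 ± 0.0471 and 0.05 ± 0.0216 for Palmul-tang, against 0.16 ± 0.0162 in vehicle (SD, n = 3 each). All 18 libraries of both formulas lay below the 3 vehicle libraries. The 3 single Sagunja-tang libraries, at 0.07, 0.07 and 0.08 from low to high, did too. Samul-tang had 0.08 and 0.15 at the low, 0.12 and 0.17 at the medium and 0.07 and 0.17 at the high dose, which overlapped with vehicle. Within a formula the ratio did not separate the doses, as the ranges of the low, medium and high libraries overlapped in Sibjeondaebo-tang, Palmul-tang and Samul-tang. Core transcripts are shorter (median 954 bases, against 1590 for the 19S particle), so the ratio compares groups and says nothing of the number of subunits made.

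**Figure D3:**
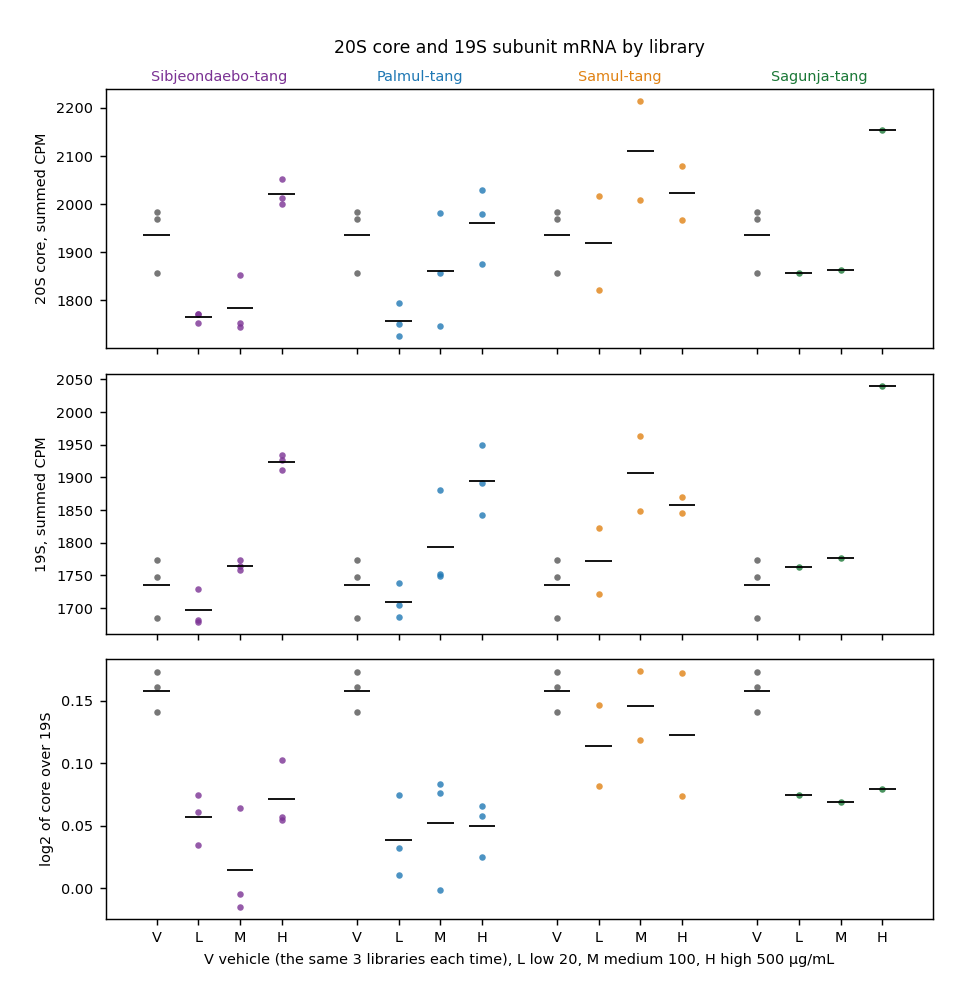
Summed CPM of the 14 core members (top), of the 17 members of the 19S particle (middle) and the log2 ratio of the sums (bottom) in each library, for each formula from vehicle (V, the same 3 libraries each time) through the low (L), medium (M) and high (H) dose, with points for libraries, bars for means and axes that do not start at 0. The high-dose 19S sums of every formula lie above all vehicle libraries, while the ratio is lower than vehicle at all doses of Sibjeondaebo-tang, Palmul-tang and Sagunja-tang.

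The same division held for the fitted values. The median log2 difference from vehicle at the high dose was -0.06 over the core and 0.11 over the 19S particle for Sibjeondaebo-tang, -0.09 and 0.09 for Palmul-tang, and -0.03 and 0.10 for Samul-tang. At the low dose it was -0.22 over the core and -0.05 over the 19S particle for Sibjeondaebo-tang, -0.23 and -0.03 for Palmul-tang, and -0.07 and 0.02 for Samul-tang. At the medium dose the medians were -0.18 and -0.03 for Sibjeondaebo-tang, -0.12 and 0.02 for Palmul-tang, and 0.05 and 0.10 for Samul-tang. With GC content and length of the transcripts entered as an offset, the core median remained below the 19S median in these 9 comparisons, for example -0.07 and 0.11 at the high dose of Sibjeondaebo-tang.

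Among the alpha subunits, which form the gated outer rings of the core, PSMA6 moved furthest at the high doses and PSMA1 least. PSMA6 was at 449, 501 and 517 CPM in Sibjeondaebo-tang high, 439, 450 and 497 in Palmul-tang high, 485 and 454 in Samul-tang high and 478 in Sagunja-tang high, against 431, 381 and 379 CPM in vehicle. All 9 high-dose libraries lay above the vehicle libraries. Its log2 difference from vehicle was 0.30 ± 0.0624 in Sibjeondaebo-tang (SE, adjusted p = 0.000351), 0.22 ± 0.0624 in Palmul-tang (adjusted p = 0.00772) and 0.24 ± 0.0692 in Samul-tang (adjusted p = 0.0141). A read-through gene, AL121594.1, overlaps PSMA6 on the same strand with a mean of 364 expected counts, so a small part of its reads may be split between both.

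PSMA1 was at 92.0, 97.1 and 100 CPM in Sibjeondaebo-tang high, 102, 99.7 and 100 in Palmul-tang high and 98.6 and 98.4 in Samul-tang high, against 105, 104 and 95.8 CPM in vehicle, and the groups overlapped. It was lower only at Palmul-tang low, by log2 -0.19 ± 0.0498 (adjusted p = 0.00502), and at Sibjeondaebo-tang medium, by -0.13 ± 0.0497 (adjusted p = 0.0496). PSMA4 was the other alpha subunit that was higher, with log2 0.21 ± 0.0596 at Sibjeondaebo-tang high (adjusted p = 0.00621).

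PSMA2, PSMA3, PSMA5 and PSMA7 were also lower in at least 1 comparison, PSMA3 only at Palmul-tang low, by log2 -0.20 ± 0.0603 (adjusted p = 0.017). PSMA7 was at 111, 105 and 106 CPM in Sibjeondaebo-tang low and 112, 107 and 102 in Sibjeondaebo-tang medium, against 128, 154 and 144 CPM in vehicle, with no overlap. Its log2 difference was -0.40 ± 0.121 at the low (adjusted p = 0.0211) and -0.41 ± 0.121 at the medium dose (adjusted p = 0.016). At Sibjeondaebo-tang high PSMA7 was at 153, 133 and 123 CPM and overlapped with vehicle. PSMA5 fell by 0.28 ± 0.0765 at the low and by 0.32 ± 0.077 at the medium dose of Sibjeondaebo-tang and by 0.32 ± 0.077 at Palmul-tang low on the log2 scale, and PSMA2 by 0.30 to 0.31 in the same groups. A gene on the same strand, AC010132.3, overlaps PSMA2 with a mean of 120 expected counts, against 1570 for PSMA2. The split of reads between them is uncertain.

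Among the beta subunits, the standard catalytic ones differed from each other. PSMB5 was at 256, 243 and 244 CPM in Sibjeondaebo-tang low, 260, 241 and 228 in Sibjeondaebo-tang medium and 224, 247 and 231 in Palmul-tang low, against 298, 308 and 273 CPM in vehicle. These 3 groups lay wholly below vehicle, with log2 differences of -0.24 ± 0.0657 (adjusted p = 0.00787), -0.27 ± 0.0659 (adjusted p = 0.00257) and -0.32 ± 0.0659 (adjusted p = 0.000755). At the high doses PSMB5 overlapped with vehicle, at 278, 306 and 281 CPM in Sibjeondaebo-tang and 295, 263 and 265 in Palmul-tang. Samul-tang had 287 and 287 CPM at the high dose, which also overlapped.

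PSMB6, which carries the caspase-like site, was lower at all doses of Sibjeondaebo-tang and Palmul-tang. It was at 58.1, 56.1 and 59.5 CPM in the low, 61.1, 57.2 and 58.1 in the medium and 64.5, 63.5 and 61.6 in the high dose of Sibjeondaebo-tang, against 70.1, 74.8 and 72.4 CPM in vehicle. The log2 differences ran from -0.32 ± 0.0647 at the low (adjusted p = 0.000531) to -0.20 ± 0.0651 at the high dose (adjusted p = 0.0172). In Palmul-tang they were -0.26 ± 0.0650 at the low, -0.19 ± 0.0650 at the medium and -0.22 ± 0.0651 at the high dose. In Samul-tang high PSMB6 was at 71.9 and 69.7 CPM, within or beside the vehicle range, and the log2 difference was -0.03 ± 0.0716.

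PSMB7, which carries the trypsin-like site, passed in none of the 9 comparisons. It was at 117, 111 and 107 CPM in Sibjeondaebo-tang high, 107, 93.6 and 123 in Palmul-tang high and 118 and 108 in Samul-tang high, against 110, 106 and 101 CPM in vehicle, and the groups overlapped.

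PSMB2, a beta subunit without a catalytic site, had the largest mean change of its ring at the high doses. It was at 177, 172 and 170 CPM in Sibjeondaebo-tang high, 165, 163 and 179 in Palmul-tang high, 177 and 152 in Samul-tang high and 168 in Sagunja-tang high, against 149, 146 and 138 CPM in vehicle. All 9 high-dose libraries lay above vehicle, with log2 differences of 0.26 ± 0.0549 (adjusted p = 0.000398), 0.22 ± 0.0549 (adjusted p = 0.00218) and 0.19 ± 0.0608 (adjusted p = 0.0312) in the first 3 formulas named. PSMB4, likewise without a catalytic site, changed least, at 108, 104 and 107 CPM in Sibjeondaebo-tang high and 116, 108 and 113 in Palmul-tang high, against 110, 120 and 109 CPM in vehicle. At the low doses PSMB4 was lower, by log2 -0.22 ± 0.0555 in Sibjeondaebo-tang (adjusted p = 0.00407) and -0.19 ± 0.0557 in Palmul-tang (adjusted p = 0.0118), as were PSMB1 and PSMB3.

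**Figure D4:**
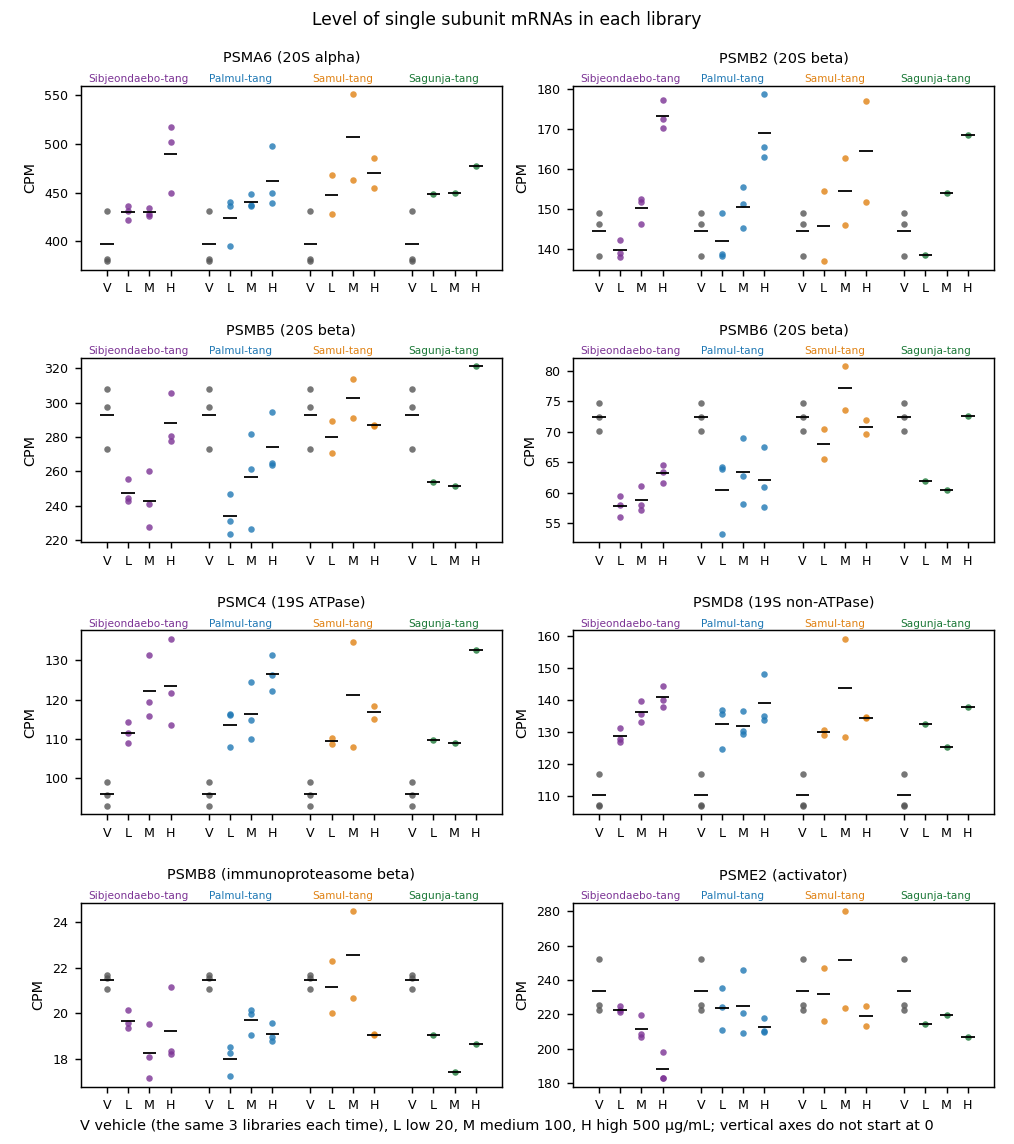
CPM of 8 members in each library, for each formula from vehicle (V, the same 3 libraries each time) through the low (L), medium (M) and high (H) dose, as points for libraries and bars for means on axes that do not start at 0. PSMC4 and PSMD8 lie above vehicle in every treated library, and PSMB6 lies below vehicle in every library of Sibjeondaebo-tang and Palmul-tang.

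The immunoproteasome subunits gave few calls, all of them lower. PSMB8, which takes the place of PSMB5, was at 19.5, 18.1 and 17.1 CPM in Sibjeondaebo-tang medium and 17.2, 18.3 and 18.5 in Palmul-tang low, against 21.7, 21.6 and 21.1 CPM in vehicle. Both groups lay below vehicle, by log2 -0.23 ± 0.0668 (adjusted p = 0.00863) and -0.25 ± 0.0669 (adjusted p = 0.00744). PSMB10, the counterpart of PSMB7, was at 8.06, 7.07 and 6.20 CPM in Sibjeondaebo-tang medium, against 8.30, 9.52 and 8.83 CPM in vehicle, with no overlap and a log2 difference of -0.32 ± 0.109 (adjusted p = 0.0249). A gene on the same strand, AC040162.1, overlaps PSMB10 by 1516 bases with a mean of 161 expected counts, against 243 for PSMB10, so the split of reads between them is uncertain.

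PSMB9, the counterpart of PSMB6, passed in no comparison. It was at 6.58, 6.38 and 5.75 CPM in Sibjeondaebo-tang high, 5.04, 5.10 and 6.55 in Palmul-tang high and 4.15 in the single Sagunja-tang high library, against 5.87, 6.92 and 5.89 CPM in vehicle. PSMB8 and PSMB9 overlap by 568 bases on opposite strands, and PSMB9 also overlaps TAP1. The library kit keeps the strand, but no source used here gives the strand setting of the counting, so these 2 genes are reported as uncertain. Other members carry the same limit, as they overlap expressed genes on the opposite strand. Examples are PSMA3 with PSMA3-AS1 (mean of 674 expected counts), PSMC2 with DNAJC2 (1488) and PSMC5 with FTSJ3 (2467).

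Of the 19S ATPases, PSMC4 changed most and PSMC2 least at the high doses. PSMC4 was at 114, 122 and 136 CPM in Sibjeondaebo-tang high, 122, 131 and 126 in Palmul-tang high, 118 and 115 in Samul-tang high and 133 in Sagunja-tang high, against 99.1, 95.6 and 92.9 CPM in vehicle. No treated library reached down to the vehicle range, and the log2 difference at the high dose was 0.37 ± 0.0667 in Sibjeondaebo-tang (adjusted p = 8.34e-05), 0.40 ± 0.0667 in Palmul-tang (adjusted p = 3.43e-05) and 0.28 ± 0.0736 in Samul-tang (adjusted p = 0.0072). It passed in 8 of the 9 comparisons with vehicle, and in Samul-tang low it was at 110 and 109 CPM with a log2 difference of 0.19 ± 0.0743 (adjusted p = 0.0961).

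PSMC2 was at 85, 83 and 79.6 CPM in Sibjeondaebo-tang high, 77.5, 74.3 and 83.5 in Palmul-tang high and 82.1 and 79.1 in Samul-tang high, against 78.8, 82.5 and 74.6 CPM in vehicle, with overlap. It was lower at Sibjeondaebo-tang low, at 69.5, 67.0 and 72.1 CPM, by log2 -0.18 ± 0.0597 (adjusted p = 0.0291). PSMC1 and PSMC5 passed in none of the comparisons with vehicle. Expected counts of the pseudogene PSMC1P1 came to 7.23% of those of PSMC1, so the split of reads between them is uncertain.

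Of the other 19S subunits, the lid subunit PSMD8 was higher than vehicle in all 9 comparisons. It was at 140, 138 and 144 CPM in Sibjeondaebo-tang high, 134, 148 and 135 in Palmul-tang high, 135 and 134 in Samul-tang high and 138 in Sagunja-tang high, against 117, 107 and 107 CPM in vehicle. The groups did not overlap at any dose. The log2 difference in Sibjeondaebo-tang was 0.22 ± 0.0566 at the low (adjusted p = 0.00475), 0.31 ± 0.0567 at the medium (adjusted p = 0.000151) and 0.35 ± 0.0568 at the high dose (adjusted p = 1.31e-05), and in Palmul-tang 0.26 ± 0.0568, 0.26 ± 0.0568 and 0.33 ± 0.0568.

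PSMD7, the lid partner of the deubiquitinase PSMD14, was higher at 6 of the 9 comparisons, at 140, 142 and 148 CPM in Sibjeondaebo-tang high and 131, 143 and 143 in Palmul-tang high, against 126, 116 and 109 CPM in vehicle. PSMD11 and PSMD12, scaffold subunits of the lid, and PSMD1, which holds together the base, were higher at the high doses of both formulas. PSMD12 was at 111, 111 and 114 CPM in Sibjeondaebo-tang high and 106, 112 and 118 in Palmul-tang high, against 98.9, 91.8 and 89.8 CPM in vehicle, with a log2 difference of 0.26 ± 0.0458 in both (adjusted p = 4.42e-05 and 6.54e-05).

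PSMD4, a ubiquitin receptor, passed in no comparison. It was at 93.1, 82.4 and 80.7 CPM in Sibjeondaebo-tang high, 84.4, 76.7 and 88.1 in Palmul-tang high and 90.8 and 87.8 in Samul-tang high, against 85.4, 88.9 and 85.3 CPM in vehicle. PSMD2, the base scaffold beside PSMD1, was the only non-ATPase subunit of the 19S particle called lower than vehicle. It was at 167, 174 and 171 CPM in Sibjeondaebo-tang low and 182, 171 and 166 in Palmul-tang low, against 216, 212 and 195 CPM in vehicle, by log2 -0.28 ± 0.0585 (adjusted p = 0.000811) and -0.26 ± 0.0586 (adjusted p = 0.00159).

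Among the activators, which bind the core in place of the 19S particle, PSME2 changed most and PSME4 least. PSME2 was at 198, 183 and 183 CPM in Sibjeondaebo-tang high, against 226, 252 and 223 CPM in vehicle, with no overlap and a log2 difference of -0.31 ± 0.0685 (adjusted p = 0.000725). In Palmul-tang high it was at 211, 210 and 218 CPM, also below vehicle, but the log2 difference of -0.14 ± 0.0683 did not pass (adjusted p = 0.133). Its partner PSME1 was lower at both high doses, by -0.15 ± 0.0566 in Sibjeondaebo-tang (adjusted p = 0.0434) and -0.16 ± 0.0566 in Palmul-tang (adjusted p = 0.0265). PSME2 overlaps RNF31 on the opposite strand.

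PSME3, a nuclear activator, was higher at Sibjeondaebo-tang high by log2 0.18 ± 0.0595 (adjusted p = 0.0198) and overlaps BECN1 on the opposite strand. PSME4 was at 239, 253 and 258 CPM in Sibjeondaebo-tang high, 240, 236 and 241 in Palmul-tang high and 221 and 244 in Samul-tang high, against 240, 222 and 233 CPM in vehicle, and the groups overlapped.

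Between the high and the low dose of a formula, which needs no vehicle, many subunits were higher in Sibjeondaebo-tang and Palmul-tang, from both the core and the 19S particle, and 0 passed in Samul-tang. In Sibjeondaebo-tang 17 members were higher and 1 lower at the high dose (47.4%, against 19.8% of all genes tested, with 44.7% of members and 10.4% of genes higher, and 9.44% of genes lower). In Palmul-tang 10 were higher and 0 lower (26.3%, against 6.78% of all genes, with 3.75% higher and 3.03% lower). In Samul-tang edgeR called 0 (against 1.42% of all genes, with 0.709% higher and 0.715% lower), 2 members had an unadjusted p under 0.05, and DESeq2 called 1. The median log2 difference was 0.15, 0.13 and 0.07 in the 3 formulas, beside 0.02, 0.00 and -0.00 over all genes tested.

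All 14 core members and all 17 members of the 19S particle had a positive log2 difference in Sibjeondaebo-tang and in Palmul-tang, whether or not they passed. The median over the core was 0.15 in both formulas, and over the 19S particle 0.18 in Sibjeondaebo-tang and 0.14 in Palmul-tang. Those that passed were 5 core and 10 19S members in Sibjeondaebo-tang, and 4 core and 6 19S members in Palmul-tang. The core count in Sibjeondaebo-tang was 3 with median-ratio factors or without mitochondrially encoded genes in the library sizes, and 8 with the GC and length offset. The immunoproteasome subunits gave 0 calls, and PSME2 was the one member that fell.

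**Figure D5:**
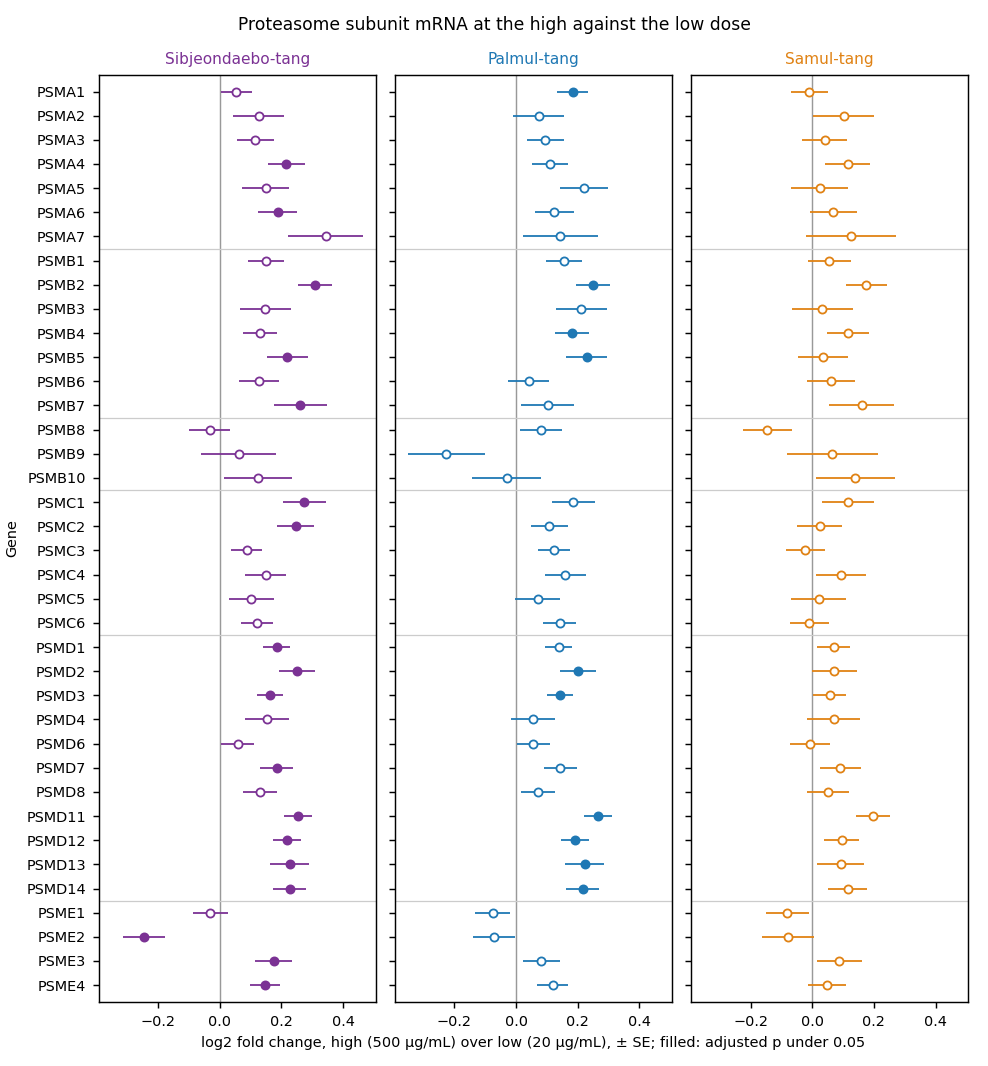
log2 fold change of the 38 members at the high over the low dose of Sibjeondaebo-tang, Palmul-tang and Samul-tang, with the standard error, filled where the adjusted p was under 0.05 in edgeR's quasi-likelihood test, and with grey lines between classes of subunit. Core and 19S members lie right of 0 in Sibjeondaebo-tang and Palmul-tang, while PSMB8, PSMB9, PSMB10, PSME1 and PSME2 scatter around 0 or lie left of it.

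A set of 8 members was higher at the high dose in both formulas: PSMB2, PSMB5, PSMD2, PSMD3, PSMD11, PSMD12, PSMD13 and PSMD14 (21.1% of 38, against 2.92% of all genes tested). In Palmul-tang the call of PSMD3 held in 7 of 14 settings and those of PSMD2 and PSMD13 in 10 of 14. PSMD11 was at 133, 126 and 126 CPM in Sibjeondaebo-tang high, against 106, 107 and 110 CPM in the low dose, and at 122, 126 and 135 CPM in Palmul-tang high, against 108, 100 and 109 CPM in the low dose. The doses did not overlap in either formula, and the log2 difference was 0.25 ± 0.0453 (adjusted p = 0.000127) and 0.27 ± 0.0456 (adjusted p = 0.00016). PSMD14, the deubiquitinase of the lid, was at 84.1, 86.0 and 86.9 CPM in Sibjeondaebo-tang high, against 71.4, 74 and 74.3 CPM in the low dose, a log2 difference of 0.23 ± 0.0525 (adjusted p = 0.00218).

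PSMB2 rose by log2 0.31 ± 0.0548 in Sibjeondaebo-tang (adjusted p = 0.000108) and 0.25 ± 0.0550 in Palmul-tang (adjusted p = 0.00324). PSMB5 rose by 0.22 ± 0.0658 (adjusted p = 0.0176) and 0.23 ± 0.0660 (adjusted p = 0.0306), so its level at the high dose overlapped with vehicle while its low-dose level lay below it. PSMD2 did the same, at 207, 205 and 198 CPM in Sibjeondaebo-tang high, against 167, 174 and 171 CPM in the low dose, with a log2 difference of 0.25 ± 0.0586 (adjusted p = 0.00248).

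Beyond these, PSMC1, PSMC2, PSMD1, PSMA4, PSMD7, PSMA6, PSMB7, PSME3 and PSME4 passed in Sibjeondaebo-tang and PSMA1 and PSMB4 in Palmul-tang. In Sibjeondaebo-tang the call of PSME4 held in 4 of 14 settings, PSME3 in 5, PSMB7 in 6, PSMA6 in 7 and PSMD7 in 10. Those of PSMC1 and PSMC2 held in 14, PSMD1 in 13 and PSMA4 in 12. In Palmul-tang PSMB4 held in 8 of 14 and PSMA1 in 11. PSME2 fell to 198, 183 and 183 CPM at the high dose of Sibjeondaebo-tang, against 225, 222 and 221 CPM at the low dose, by log2 0.24 ± 0.0684 (adjusted p = 0.0112). PSMC4 and PSMD8, the members furthest from vehicle, did not pass between doses, at log2 0.15 ± 0.0661 (adjusted p = 0.118) and 0.13 ± 0.0563 (adjusted p = 0.104) in Sibjeondaebo-tang.

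The Palmul-tang count of 10 was 3 without high-dose replicate 1 or replicate 3, and 5 without low-dose replicate 1 or replicate 3. The Sibjeondaebo-tang count of 18 was 11 without high-dose replicate 2 or low-dose replicate 2, 14 without the low-dose replicate 3 that held fibroblast markers, and 14 with mitochondrially encoded genes left out of the library sizes.

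Promoter windows of 250 bases before to 50 bases after the transcription start were read from RefSeq (GRCh38.p14) for 33 of the 38 members. The core of the antioxidant response element, TGACNNNGC on either strand, is bound by NFE2L1 and related factors with small Maf partners. It was present in 11 of 33 members (33.3%), in 2 of the 8 that rose in both formulas, and in 16.1% of the 27303 genes with a window. By class, it was present in 2 of 10 members of the 20S core (20%) and 5 of 16 of the 19S particle (31.2%). The other matches were in activators and in PSMB9. The letters CCAAT were present in 17 of 33 (51.5%), against 39.7% of all, and GAANNTTC, the pair of units bound by heat shock factor, in 0 of 33, against 8.21% of all. A match is a description of the letters and not a shown binding site. Of the 11 members with a match, 5 are shown as examples of the different outcomes between doses, with 1 match each in capitals, 5′ to 3′ on the gene's strand. They are PSMD3 at chr17:39980750-39980798 (plus strand, first capital 37 bases before the start), PSMD12 at chr17:67366714-67366762 (minus strand, 165 before), PSMA4 at chr15:78540640-78540688 (plus strand, 126 before), PSMB3 at chr17:38752617-38752665 (plus strand, 104 before) and PSME2 at chr14:24146757-24146805 (minus strand, 175 before).
PSMD3: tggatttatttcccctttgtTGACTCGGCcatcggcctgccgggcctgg
PSMD12: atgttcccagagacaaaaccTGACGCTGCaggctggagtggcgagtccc
PSMA4: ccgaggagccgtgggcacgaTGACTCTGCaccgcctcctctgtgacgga
PSMB3: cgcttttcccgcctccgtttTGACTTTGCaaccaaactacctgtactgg
PSME2: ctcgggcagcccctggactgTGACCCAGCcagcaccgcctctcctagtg
Of these, PSMD3 and PSMD12 rose with dose in both formulas, PSMA4 in Sibjeondaebo-tang, PSMB3 passed in neither, and PSME2 fell in Sibjeondaebo-tang. PSMB9, PSMC4, PSMC5, PSMD1, PSME1 and PSME4 also hold the letters, PSMC4 27 bases and PSMD1 39 bases after the start. PSMD3 holds them again 33 bases after its start.

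Sibjeondaebo-tang and Palmul-tang share most of their herbs and could be compared at matched doses. No member differed between them at the low (0 of 38, against 0% of all genes), medium (0 of 38, against 0.0311%) or high dose (0 of 38, against 6.47%, with 1.75% higher and 4.72% lower) by edgeR's test with adjustment over all genes. At an unadjusted p under 0.05 there were 0, 1 and 1 members. The median log2 difference over the members was -0.01, -0.05 and 0.03 from low to high. PSME2 came nearest at the high dose, at 198, 183 and 183 CPM in Sibjeondaebo-tang, against 211, 210 and 218 CPM in Palmul-tang, a log2 difference of -0.18 ± 0.0686 (adjusted p = 0.127), and the interval of 2 SE either side ran from -0.31 to -0.04.

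The intervals leave room for small differences. For PSMC4 at the high dose the interval of 2 SE ran from -0.17 to 0.10, for PSMD8 from -0.09 to 0.13, for PSMB5 from -0.06 to 0.20 and for PSMA7 from -0.14 to 0.34. The dose effect itself, high minus low in Sibjeondaebo-tang minus that in Palmul-tang, passed for 0 of 38 members (against 2% of all genes, with 0.0497% higher and 1.95% lower), with 0 at an unadjusted p under 0.05. Its values ran from -0.17 ± 0.0967 for PSME2 to 0.29 ± 0.175 for PSMB9. A larger count of calls in 1 formula is therefore not shown to be a difference between them.

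The Sagunja-tang series has 1 library a dose and no test. At its high dose 14 members had a log2 ratio to vehicle of at least 0.2 (against 21.6% of all genes) and 1 of -0.2 or lower (against 24.9%), and the median over the members was 0.14. At its low dose 1 member was at 0.2 or more (against 19%) and 4 at -0.2 or lower (against 21.5%), and at its medium dose 0 (against 21.1%) and 7 (against 22.1%), with a median of -0.06 at both. Between the high and the low dose, 19 members were at 0.2 or more (against 21.2%) and 1 at -0.2 or lower (against 21.4%). The median was 0.20, with 34 of the 38 members above 0, among them 14 of 14 core and 17 of 17 19S members, beside 8243 of the 16083 genes.

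Genes that act with the proteasome were described from 4 lists. Of the 8 tested genes of other subunits and bound proteins, 5 were higher and 0 lower at Sibjeondaebo-tang high (against 19.3% of all genes higher), 4 and 0 at Palmul-tang high (against 16.3%) and 2 and 0 at Samul-tang high (against 9.82%). TXNL1, a thioredoxin-like protein bound to the 19S particle, was at 76.9, 80.4 and 94.2 CPM in Sibjeondaebo-tang high, against 63.1, 58.7 and 58.4 CPM in vehicle, a log2 difference of 0.48 ± 0.0875 (adjusted p = 0.000159). ADRM1, a ubiquitin receptor, was at 167, 148 and 158 CPM, against 131, 136 and 120 CPM in vehicle, by 0.29 ± 0.0595 (adjusted p = 0.000317), and also rose between the low and the high dose of both formulas. PSMF1, known as an inhibitor of the core in vitro, and UCHL5, a deubiquitinase, were higher at both high doses.

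Of 10 assembly factors tested, 0 were higher and 4 lower at Sibjeondaebo-tang high (against 16.7% of all genes lower), 0 and 5 at Palmul-tang high (against 15.6%) and 0 and 2 at Samul-tang high (against 8.69%). The others did not pass, such as PSMG1 at log2 0.07 ± 0.0692 and PAAF1 at 0.11 ± 0.0709 in Sibjeondaebo-tang high. PSMD9 and PSMD10, chaperones of the 19S base, were lower at Palmul-tang high by -0.27 ± 0.0661 (adjusted p = 0.00249) and -0.23 ± 0.0677 (adjusted p = 0.00946), and PSMG3, a chaperone of the alpha ring, by -0.25 ± 0.0685 (adjusted p = 0.00612). Between the high and the low dose the list gave 1 call in Sibjeondaebo-tang (against 19.8% of all genes, with 10.4% higher). This was PAAF1 at 0.20 ± 0.0705 (adjusted p = 0.0461), a call that held in 4 of 14 settings. The list gave 0 calls in Palmul-tang (against 6.78% of all genes) and in Samul-tang (against 1.42%).

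Of the 9 genes listed for transcription control, NFE2L1 was higher than vehicle at all 9 doses. It was at 282, 272 and 280 CPM in Sibjeondaebo-tang high, 273, 269 and 271 in Palmul-tang high and 256 and 264 in Samul-tang high, against 206, 213 and 219 CPM in vehicle. The groups did not overlap, with log2 differences of 0.39 ± 0.0390 (adjusted p = 5.89e-09), 0.35 ± 0.0390 (adjusted p = 5.00e-08) and 0.29 ± 0.0432 (adjusted p = 1.93e-05). Between the high and the low dose NFE2L1 rose by 0.23 ± 0.0389 in Sibjeondaebo-tang (adjusted p = 5.12e-05) and 0.18 ± 0.0390 in Palmul-tang (adjusted p = 0.00224).

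VCP, the ATPase that draws NFE2L1 out of the endoplasmic reticulum, was lower than vehicle at all 9 doses. It was at 299, 303 and 273 CPM in Sibjeondaebo-tang high and 274, 242 and 282 in Palmul-tang high, against 337, 342 and 327 CPM in vehicle, by -0.20 ± 0.0707 (adjusted p = 0.0268) and -0.34 ± 0.0708 (adjusted p = 0.000661). The call of VCP held in 5 of 13 settings at Samul-tang medium and in 9 of 13 at Samul-tang low. Of the small Maf partners, MAFF was higher and MAFK lower at both high doses, by 0.42 ± 0.0945 and -0.29 ± 0.0878 in Sibjeondaebo-tang. MAFG was lower at Sibjeondaebo-tang high, at 42.2, 44.6 and 41.8 CPM, against 49.1, 46.6 and 45.8 CPM in vehicle. It did not pass at Palmul-tang high. The remaining genes of this list, NFE2L2, NFE2L3, DDI2 and NGLY1, passed at no high dose against vehicle. At the high against the low dose, NFE2L3 and MAFG were also higher in Palmul-tang, in 9 and 8 of 14 settings. MAFF was higher at the high than the low dose of Sibjeondaebo-tang, in 8 of 14 settings.

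Of the 9 genes for interferon-linked antigen processing, 2 were higher and 2 lower at Sibjeondaebo-tang high, 2 and 1 at Palmul-tang high and 0 and 0 at Samul-tang high. Of all genes, 19.3% were higher and 16.7% lower at Sibjeondaebo-tang high and 16.3% and 15.6% at Palmul-tang high, and 9.82% and 8.69% at Samul-tang high, so that counts of this size are near the background. NLRC5, an activator of MHC class I genes, was lower at Sibjeondaebo-tang high by -0.54 ± 0.123 (adjusted p = 0.000839), and B2M, the MHC class I light chain, higher by 0.30 ± 0.0877 (adjusted p = 0.00979).

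PSMC4 had the largest mean absolute log2 difference at the high doses. Over the mean log2 CPM of the 13 groups, the 5 tested genes most like it were ZDHHC16 (Pearson r = 0.945), NEK3 (0.943), SNAI1 (0.938), DMKN (0.934) and NOP2 (0.934), as a description over groups that share a vehicle and library sets. Among the members the most alike were PSMD7 (r = 0.917, rank 18 of all genes) and PSMD8 (0.889, rank 52).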

How the data were processed

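RNA of 30 HepG2 libraries was sequenced as 100 bp paired-end reads from a directional kit, per the labels' protocols. The authors deposited expected counts per gene, estimated with RSEM 1.3.3 after FastQC 0.11.9, Trim Galore 0.6.5 and STAR 2.7.3a on GRCh38, per the submitters' processing notes. The annotation release and the strand setting of the counting are not given in the sources used here. Of 270 columns, 240 belong to no sample of this series and were not used. Expected counts were rounded (8.56% were not whole).

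The members, lists and tests were chosen with earlier results of these data known. The main test was edgeR 4.0.16's quasi-likelihood test (R 4.3.3, TMM, filterByExpr with a minimum count of 10 and a minimum total of 15) on 27 libraries in 10 groups, 16083 genes and 17 residual degrees of freedom, with 16 comparisons, each Benjamini-Hochberg adjusted over all genes at 0.05. The square root of the common dispersion was 5.47%. Sagunja-tang, with 1 library a dose, was left out of the fit and described by log2 ratios with a prior count of 2. Tested on simulated counts, the fit recovered 48% of 50 genes changed 1.2-fold and 100% at 1.5-fold in Palmul-tang high against vehicle (15843 genes), 42% and 96% in Samul-tang high against vehicle (15856 genes), and 44% and 94% (15843 genes) between the high doses of Sibjeondaebo-tang and Palmul-tang. Each simulation changed 200 genes, whereas 5118 were called in the data for Palmul-tang high against vehicle. The rates of recovery need not hold for the data.

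Genes shown by library were the catalytic and immunoproteasome beta subunits and, in each class, the member with the largest and the smallest mean absolute log2 difference at the high doses. Members that passed between high and low doses, and values for PSMA7, PSMD7, PSMD2, PSMD12, PSMD11 and PSMD14, were chosen after their values were seen. A further gene list is not reported here. Lengths and overlaps come from GENCODE release 29 and promoter sequences from RefSeq. Alternatives were DESeq2 1.42.0, its median-ratio factors, no filter, a GC and length offset, a replicate block, library sizes without mitochondrially encoded genes, the compared groups alone and each library left out. Nothing says that replicates came from separate cultures, so p-values measure the spread between these libraries, which may be technical. Totals of 21570416 to 37707232 expected counts set the precision, and PSMB9 and PSMB10, with the fewest counts, are the least precise members.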

Additional observations from a re-analysis of the deposited data

Results flagged for a closer look

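PSMC3, a 19S ATPase, was above vehicle in both libraries of Samul-tang medium, at 83.5 to 86.6 CPM, and below vehicle in all 3 libraries of Sibjeondaebo-tang medium, at 72.0 to 74.5 CPM, against 78.6 to 80.4 CPM in vehicle. PSMC3 passed the test against vehicle at neither of these doses. By library values the formulas lay on opposite sides of vehicle, with a log2 difference of 0.21 between their means, and the difference was not tested. Such separation was common. Of the 16083 genes tested, 3174 were above vehicle in both libraries of Samul-tang medium. In all 3 libraries of Sibjeondaebo-tang medium, 3623 were below vehicle. How many genes did both was not counted. The 2 Samul-tang medium libraries also differed from each other more than any other pair of replicates.

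PSMD4, a ubiquitin receptor of the 19S particle, likewise lay above vehicle in Samul-tang medium and below it in Sibjeondaebo-tang medium. It was at 91.6 to 93.7 CPM in Samul-tang medium and 72.3 to 81.9 CPM in Sibjeondaebo-tang medium, against 85.3 to 88.9 CPM in vehicle. The log2 difference between the means of the formulas was 0.26, and it was not tested. PSMD4 passed in no comparison with vehicle.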

How the results depend on the processing

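No called member reversed its direction under any alternative, and 47 of 121 called member values passed in every setting. Counts of members that moved by over 1.5 times were as follows. Without the filter on low counts, Palmul-tang medium against vehicle had 10, Samul-tang low 3, and the comparison of the high doses of Sibjeondaebo-tang and Palmul-tang 1. With the GC and length offset, Samul-tang medium had 5 and Samul-tang low 2. With the compared groups alone, Sibjeondaebo-tang low had 20, Samul-tang medium 0, Samul-tang low 3 and the comparison of the high doses of Sibjeondaebo-tang and Palmul-tang 1. DESeq2 called 1 member between Samul-tang high and low. The cause was not tested. Replicate numbers did not pair the samples (correlations of same-numbered deviations from -0.17 to 0.108). With the replicate block, Sibjeondaebo-tang had 16, 18 and 17 members from low to high, Palmul-tang 14, 7 and 14, Samul-tang 1, 9 and 6, and high against low 20 in Sibjeondaebo-tang, 11 in Palmul-tang and 0 in Samul-tang, and the block with the GC and length offset gave 10 for Palmul-tang medium and 1 for the comparison of the high doses of Sibjeondaebo-tang and Palmul-tang. Leaving out each library in turn, counts against vehicle from low to high ran 4 to 12, 8 to 17 and 10 to 13 for Sibjeondaebo-tang, 11 to 14, 2 to 9 and 8 to 11 for Palmul-tang, and 0 to 2, 1 to 11 and 1 to 7 for Samul-tang. Between high and low they ran 11 to 14 for Sibjeondaebo-tang, 3 to 10 for Palmul-tang and 0 to 0 for Samul-tang, and 0 to 0 between Sibjeondaebo-tang and Palmul-tang. Where a Samul-tang group kept 1 library, that library was assumed to vary like the other groups.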
